A study of Mus musculus with 2 samples.

Results

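The apelin system was examined through its ligand gene Apln and its receptor gene Aplnr, which are 2 of the 24319 rows listed for each library, picked by gene symbol. Their levels were set beside those of Pecam1 and Cdh5, which encode adhesion proteins of endothelial junctions. The libraries are described as lymphatic endothelial cells (LECs) of C57BL/6 mouse skin at E15.5 (embryonic day), and markers of other cell types were present in both. One is labelled wild type and serves as control. The other is labelled Dot1l knockout, described in the protocol as an endothelial deletion of Dot1l, the gene for the histone H3 lysine 79 methyltransferase. Each library was made from RNA pooled over 2 to 3 biological replicates. For the Cre driver, the purification of the cells and the deleted part of Dot1l, nothing is given in the sources used here.

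Aplnr is a G-protein-coupled receptor of the cell surface that lowers cyclic AMP through inhibitory G proteins and also recruits arrestins. It has a pair of peptide ligands, apelin, cut from the Apln product, and the product of Apela (also called Elabela or Toddler), which acts early in the developing heart and vessels. In growing blood vessels Apln is known as a gene of the tip cells that lead a sprout, while Aplnr is typical of veins and of the cells that follow the tip. Apln is also known to be switched on by low oxygen and to be secreted by fat cells.

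With 1 library per genotype there is no replicate error and no test, so every difference below describes these libraries only. The apelin genes were chosen by symbol after earlier results of these data had shown a low Aplnr FPKM in the second library, so their levels are given as a description. Levels are FPKM, the number of fragments for each kilobase of a transcript among 1000000 that were mapped, which allows levels of different genes to be compared. Differences are in log2(FPKM + 1), labelled knockout minus control, which understates the change of low genes. Higher and lower, in counts of genes, mean that this difference was at least 2-fold. Among 13296 genes with at least 1 FPKM in either library, 2060 were lower by this rule (15.49%) and 2231 higher (16.78%). These shares are the background for every count of listed genes below. When each library was rescaled to the same sum these counts were 3330 lower and 1900 higher. They were 2365 and 1975 with the same upper quartile, and 2115 and 2168 with the same median. Dot1l was 5.86 FPKM in control and 10.4 FPKM in the other library, which gives no check of the label; the term library labelled knockout is used for that reason.

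Upstream sequences of the ligand genes are shown because both ligands were low in the same library. They are the 250 bases before the start of each gene, 5′ to 3′ on the gene's strand, from the RefSeq promoter table of build GRCm38.p6, which is not the build named for these data. No entry for Aplnr was matched in that table. Capitals mark GGAA or its complement TTCC, the core letters of sites bound by ETS factors, a family with many endothelial members.
Apln, chrX:48034854-48035103, minus strand: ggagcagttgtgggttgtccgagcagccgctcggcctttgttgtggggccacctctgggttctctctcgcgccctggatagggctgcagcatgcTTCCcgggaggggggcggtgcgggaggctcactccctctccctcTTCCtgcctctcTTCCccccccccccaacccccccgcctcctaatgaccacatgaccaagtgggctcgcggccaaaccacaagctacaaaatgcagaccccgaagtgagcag
Apela, chr8:65037337-65037586, minus strand: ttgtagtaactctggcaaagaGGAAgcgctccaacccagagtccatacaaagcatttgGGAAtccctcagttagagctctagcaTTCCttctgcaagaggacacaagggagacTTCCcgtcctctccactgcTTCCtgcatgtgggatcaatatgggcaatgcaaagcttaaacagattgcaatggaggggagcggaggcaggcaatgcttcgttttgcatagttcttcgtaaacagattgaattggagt
The Apln stretch holds 3 matches on both strands together and the Apela stretch 5, against a median of 3 over 32851 promoters of the same length, of which 93.4% hold at least 1. The letters ACGTG, 1 form of the core of the element bound by hypoxia-inducible factors, were searched on both strands and are in neither stretch. Of all promoters 16.6% hold them. Other forms of that core and sequence outside this window were not searched. These matches are descriptions of letters in this window. The Apln stretch is 65.2% G and C and the Apela stretch 48%, beside a median of 52.4%.

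The receptor was among the more abundant transcripts of the control library and among the less abundant of the other. The Aplnr level was 52.8 FPKM in control against 2.44 FPKM in the library labelled knockout. The receptor's level was higher than that of 90.0% of the 13296 genes in the first and 20.0% in the second. The ratio of the deposited values is 21.6-fold lower and the difference in log2(FPKM + 1) was -3.97, the lowest but 10 of all 13296 genes, which places Aplnr at position 11. Among the 6287 genes with at least 10 FPKM in control it was also at position 11. There it was at position 18 with a pseudocount of 0.1 or none, and at position 20 with 5. Genes with lower differences than Aplnr included the adipocyte markers Car3 and Adipoq and the fibroblast marker Mfap5. At the estimated depth the Aplnr values rest on about 1910 and 78.3 fragments. In bulk samples such as these, fewer cells of a type and less RNA per cell cannot be told apart.

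Both ligands were low along with the receptor. Apln was 20.9 FPKM in control against 1.94 FPKM in the library labelled knockout, a 10.8-fold lower level and a log2 difference of -2.90. This was position 78 from the lowest of all genes. Apln lies on the X chromosome, and Xist, an X-linked RNA of female cells, was 48.6 FPKM in control and listed at 0 in the other library. Whether the pools differed in the sex of the embryos, and the part of this in the Apln values, was not tested. Apela was 8.57 FPKM and 0.815 FPKM, 10.5-fold lower, with a log2 difference of -2.40. The Apela value in the library labelled knockout rests on only about 5.80 fragments, against 68.7 in control, and GENCODE M21 places 1 other gene over it on the same strand, which is not a row of these tables, so reads of the overlap could be counted to Apela. No other gene overlaps Apln or Aplnr there. About 636 and 52.5 fragments lie behind the Apln values.

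The order of the levels was the same in both libraries, with Aplnr highest, then Apln, then Apela, although the distances between them differed. The FPKM of the receptor was 2.53 times that of Apln in control against 1.26 times in the library labelled knockout. The Apln level was 2.44 times and 2.38 times that of Apela. The receptor and Apln were thus closer in level in the second library, while the proportion between the ligands was similar, within the thin coverage of Apela.

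**Figure D1:**
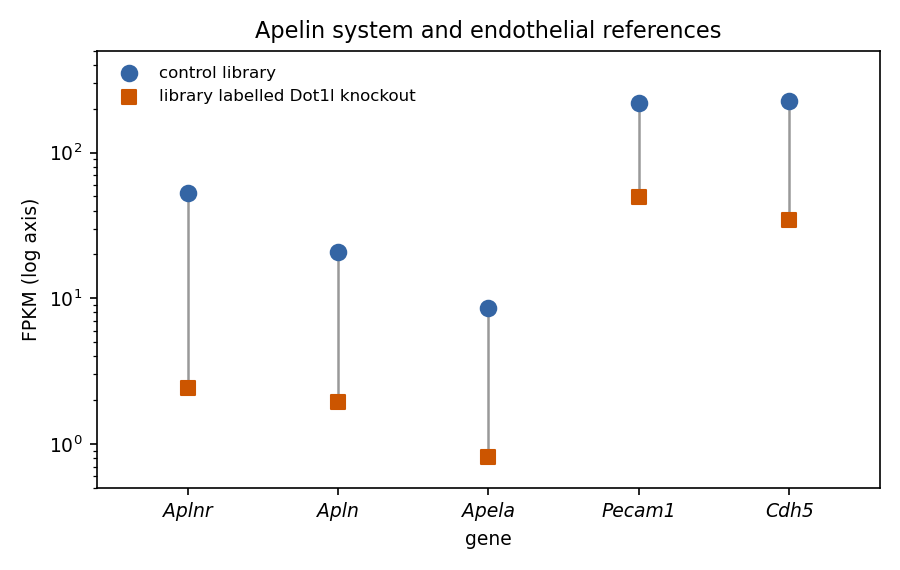
FPKM of each gene (log axis) in the control library (circles) and the library labelled Dot1l knockout (squares), 1 pooled library each and no error bars. Aplnr spans 52.8 to 2.44 FPKM and Apln 20.9 to 1.94 FPKM, longer distances than those of Pecam1 (218 to 49.2 FPKM) and Cdh5 (227 to 34.4 FPKM).

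The endothelial reference genes were lower as well, by less than the receptor. Pecam1 was 218 FPKM in control against 49.2 FPKM in the library labelled knockout, 4.42-fold lower with a log2 difference of -2.12. Cdh5 was 227 FPKM and 34.4 FPKM, 6.58-fold lower with a log2 difference of -2.68. The differences of these references were themselves 0.56 apart on the log2 scale. Macrophage and mast cell markers were higher in the library labelled knockout (median differences 6.18 and 5.79). Which cells the Pecam1 and Cdh5 transcripts came from was not tested.

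Set against these references, Aplnr was lower, and Apln was lower by a smaller margin. The receptor's FPKM equalled 24.2% of that of Pecam1 in control against 4.96% in the library labelled knockout. Against Cdh5 it was 23.3% and 7.09%. Relative to the mean of both references the Aplnr log2 difference was -1.56, ranging from -1.28 against Cdh5 alone to -1.84 against Pecam1 alone. With a pseudocount of 5 it was -0.66.

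The ligand level as a share of Pecam1 was 9.59% in control against 3.94% in the library labelled knockout, and as a share of Cdh5 it was 9.22% and 5.64%. Its log2 difference relative to both references was -0.49, smaller than the distance between the references. It was -0.93 with a pseudocount of 0.1 and turned to 0.40 with one of 5, which is larger than the level of Apln in the library labelled knockout. The corresponding value for Apela depended on the pseudocount: it was 0.0044 with 1, -0.82 with 0.1, -0.96 with none and 1.07 with 5.

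Among 25 pan-endothelial markers, 22 were at least 2-fold lower, none higher, and the median difference was -1.90. Every one of the 25 had a less negative difference than Aplnr on the log2(FPKM + 1) scale. The nearest was Ramp2, the co-receptor for adrenomedullin, with 156 FPKM and 9.97 FPKM and a difference of -3.84. With a pseudocount of 5 the difference of Ramp2 was the lower. Apln was passed by 3 of the 25, Ramp2, Cd34 and Sox18, and with a pseudocount of 5 by 10. Apela was passed by 9, with a pseudocount of 5 by 18, and with none by 2. The smallest difference of the 25 was -0.0037, in Fli1 (61.3 and 61.2 FPKM). Macrophage and mast cell markers were higher in the library labelled knockout (medians 6.18 and 5.79). Which cells the transcripts of the 25 markers came from was not tested.

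**Figure D2:**
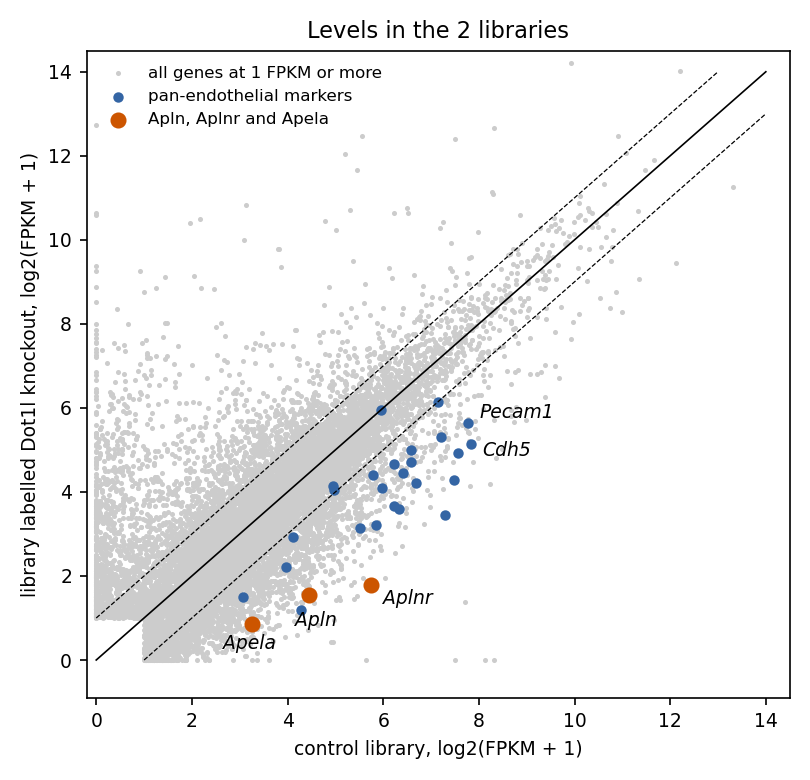
Each point is a gene at 1 FPKM or more in either library, with log2(FPKM + 1) in control on the x axis and in the library labelled knockout on the y axis; the solid line marks equal levels and the dashed lines 2-fold. Aplnr, with a difference of -3.97, lies farther below the solid line than each of the 25 pan-endothelial markers, and Apln (-2.90) lies farther below it than all but 3 of them.

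The wider pathway was divided, with genes low and high in the library labelled knockout. Of 46 pathway genes, 42 reached 1 FPKM, of which 14 were at least 2-fold lower, 5 higher and 23 within 2-fold. Without Apln, Aplnr and Apela, 11 of 39 were lower (28.2%, beside 15.49% of all genes) and 5 higher (12.8%, beside 16.78%), with a median difference of 0.018 beside 0.0030 for all genes. Of these 11 lower genes, Tek and Kdr are also counted among the pan-endothelial markers, and Ackr3 among the endothelial G-protein-coupled receptors. After rescaling to the same sum, which moved the median of all genes to -0.33, the median of these 39 was also -0.33.

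Genes for the processing of the peptides went both ways. Furin, the convertase that cuts many precursor proteins and can cut proapelin, was 6.26 FPKM in control against 81.4 FPKM in the library labelled knockout. Pcsk5, another convertase of that family, was 5.87 FPKM and 1.05 FPKM, and Pcsk7 was 7.88 FPKM and 10.7 FPKM. Mme, which encodes neprilysin, a peptidase that breaks down apelin, was 9.74 FPKM and 2.81 FPKM. Klkb1 was listed at 0 in both libraries.

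Among 10 genes for G proteins, receptor kinases and arrestins, 4 were at least 2-fold higher (40%, beside 16.78% of all genes). Of the rest, 1 was lower (10%, beside 15.49%) and 5 lay within 2-fold (50%, beside 67.7%). Arrb2, an arrestin that binds activated receptors, was 5.75 FPKM in control against 65.5 FPKM in the library labelled knockout, while its relative Arrb1 was 23.7 FPKM and 30.6 FPKM. Grk2, a kinase that marks receptors for arrestins and is listed under its older symbol Adrbk1, was 8.06 FPKM and 50.2 FPKM, and Grk5 was 14.7 FPKM and 8.99 FPKM. The inhibitory G-protein subunits were unlike each other, with Gnai1 at 18.0 FPKM and 142 FPKM, Gnai2 at 243 FPKM and 248 FPKM, and Gnai3 at 77.4 FPKM and 114 FPKM. Gna13 was 15.53 FPKM and 45.4 FPKM, Gna11 was 14.6 FPKM and 4.76 FPKM, and Gnaq was 25.4 FPKM and 33.8 FPKM. These genes are active in many cell types. Macrophage and mast cell markers, with median differences of 6.18 and 5.79, were higher in the same library. The part of those cells in these values was not tested.

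Of 13 signalling proteins and targets of the receptor, 11 lay within 2-fold, beside 67.7% of all genes, and 2 (15.4%) were lower, a share close to that of all genes. Their median was 0.021, which became -0.33 after rescaling to the same sum, where 4 were lower. The 2 lower genes were Nos3, the endothelial nitric oxide synthase, with 7.75 FPKM in control against 1.24 FPKM in the library labelled knockout, and the transcription factor Klf4 with 111 FPKM and 43.5 FPKM. Klf2, a flow-responsive factor placed downstream of the receptor, was 37.4 FPKM and 22.5 FPKM. The MEF2 factors differed little: Mef2a was 42.0 FPKM and 42.6 FPKM, Mef2c 38.9 FPKM and 41.3 FPKM, and Mef2d 6.89 FPKM and 10.1 FPKM. Their histone deacetylases Hdac4 (5.56 and 6.88 FPKM) and Hdac5 (7.78 and 10.8 FPKM) also lay within 2-fold. So did the kinases Akt1, Mapk3, Mapk7 and Prkaa1, with log2 differences from -0.93 for Mapk3 to 0.20 for Akt1.

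Of 9 genes known to act upstream of Apln or its receptor, 3 were at least 2-fold lower (33.3%, beside 15.49% of all genes). None was higher, beside 16.78% of all genes. After rescaling to the same sum 5 were lower, where 3330 of all 13296 genes were lower. The 3 lower as deposited were Tek, the angiopoietin receptor (79.5 and 11.0 FPKM), its ligand Angpt1 (5.26 and 0.894 FPKM) and Kdr, the main VEGF receptor (188 and 29.7 FPKM). Tek and Kdr also belong to the pan-endothelial markers, of which 22 of 25 were lower. The hypoxia-inducible factors Hif1a (91.5 and 47.0 FPKM) and Epas1 (12.7 and 6.67 FPKM) were within 2-fold as deposited, with differences of -0.95 and -0.84. Their partner Arnt was 18.2 FPKM and 25.8 FPKM. Vegfa, Fgf2 and Fgfr1 lay between -0.32 and 0.61.

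The receptors related to Aplnr were low too, where they were measured. Agtr2, a receptor for angiotensin, was 224 FPKM in control against 16.5 FPKM in the library labelled knockout, a difference of -3.68 that comes close to that of Aplnr. Agtr1a was 6.04 FPKM and 0.877 FPKM, and Ackr3, a chemokine receptor that scavenges ligands, 6.40 FPKM and 0.645 FPKM. Agtr1b and Gpr25 were listed at 0 in both libraries.

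**Figure D3:**
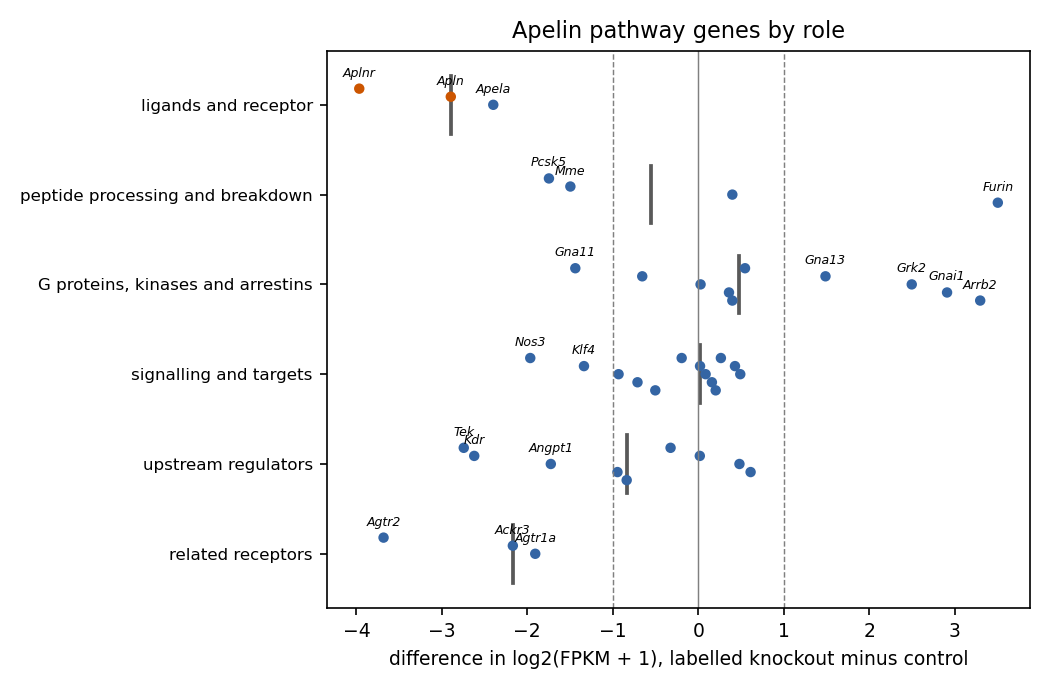
Difference in log2(FPKM + 1), labelled knockout minus control, for the 42 measured pathway genes by role; Apln and Aplnr are the orange points, grey bars are list medians, and dashed lines mark 2-fold. The ligands and receptor lie between -3.97 and -2.40, while signalling genes gather near a median of 0.021 and Furin and Arrb2 lie above 3 on this axis.

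Other G-protein-coupled receptors of endothelium were mostly lower, and Aplnr was the lowest of them. Of 22 measured receptors other than Aplnr, 14 were lower by at least 2-fold and 1 was higher (median -1.34). By level, Aplnr held position 4 of 23 in the control library against position 16 in the library labelled knockout. Lpar4, a receptor for lysophosphatidic acid, was closest to it with 40.6 FPKM and 2.60 FPKM and a difference of -3.53. The next were Gpr182, an atypical chemokine receptor of lymphatic and sinusoidal endothelium (8.21 and 0.716 FPKM, -2.42), and Ackr3 (-2.17). The sphingosine 1-phosphate receptor S1pr1, at a control level close to that of Aplnr, was 54.4 FPKM and 20.1 FPKM. Calcrl, the adrenomedullin receptor, was 49.3 FPKM and 33.5 FPKM, and Ednrb, an endothelin receptor that pigment cell precursors also use, was 44.4 FPKM and 77.1 FPKM.

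**Figure D4:**
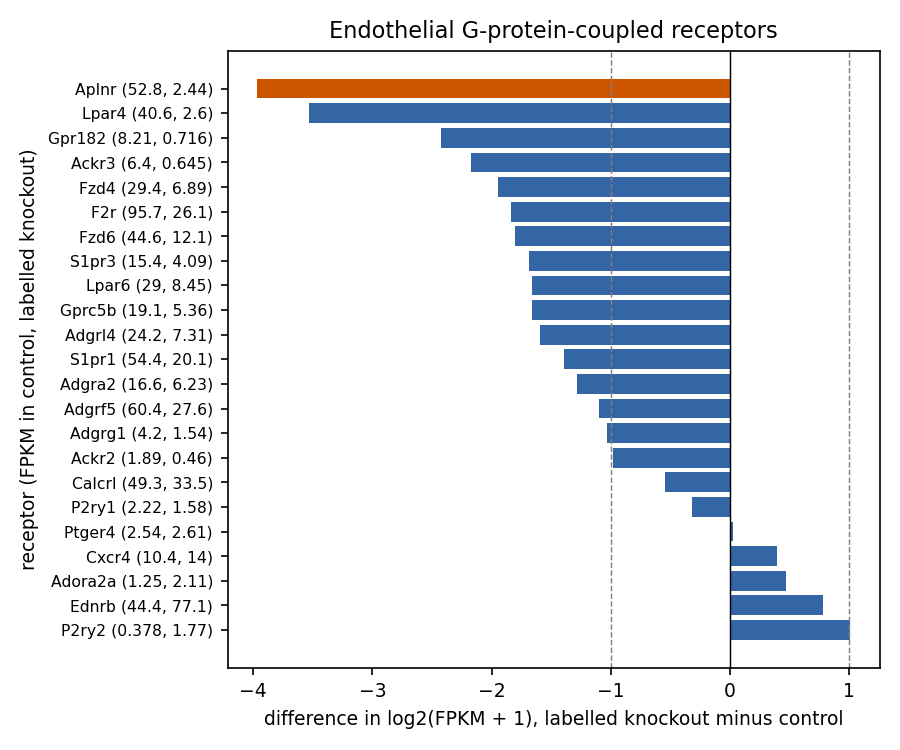
Bars give the difference in log2(FPKM + 1), labelled knockout minus control, for 23 receptors, with both FPKM values, control first, beside each name; dashed lines mark 2-fold. Aplnr (orange, -3.97) and Lpar4 (-3.53) stand below the next receptor, Gpr182, at -2.42.

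Genes listed for the vessel types in which the receptor and ligand are known were mostly lower, by less than the members. Without Aplnr, 6 of 9 measured venous genes were at least 2-fold lower and 1 was higher, with a median of -1.90. Emcn, a surface sialomucin of veins and capillaries, was 101 FPKM in control against 17.7 FPKM in the library labelled knockout, and Ephb4, the receptor that marks veins, was 42.0 FPKM and 8.42 FPKM. Selp, which encodes P-selectin, was the higher gene, with 0.893 FPKM and 3.20 FPKM. The difference of Aplnr, -3.97, lay below the lowest of the other venous genes, -2.46.

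Without Apln, 12 of 17 tip cell genes were lower by at least 2-fold and 1 was higher (median -1.48). Igfbp3, a binding protein for insulin-like growth factors, was 97.7 FPKM and 15.2 FPKM, and Esm1, a secreted proteoglycan of tip cells, 3.67 FPKM and 0.677 FPKM. Angpt2, also made by tip cells, was 45.6 FPKM and 40.1 FPKM. Plaur, the urokinase receptor, which macrophages express as well, was the higher gene with 7.20 FPKM and 36.2 FPKM. In the arterial list 11 of 16 genes were lower and none higher, with a median of -1.35. The arterial gene with the lowest difference was Gja4, which encodes connexin 37, with 45.1 FPKM and 3.82 FPKM.

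Of the hypoxia-inducible genes measured, Apln was the one that was at least 2-fold lower. Without Apln, none of 19 measured genes was at least 2-fold lower, 7 were higher (36.8%, beside 16.78% of all genes) and 12 within 2-fold. Their median was 0.63. After rescaling to the same sum the median was 0.33 and 6 were higher. Ldha, which makes lactate, was 171 FPKM in control against 977 FPKM in the library labelled knockout, and the hexokinase Hk2 was 4.94 FPKM and 38.8 FPKM. The lowest difference of the other genes was -0.59, in Bhlhe40, against -2.90 for Apln. Which cells the glycolytic transcripts came from was not tested.

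Markers of cell types differed between the libraries in both directions. Lymphatic markers had 9 of 11 genes at least 2-fold lower (median -2.10), with Prox1 at 59.3 FPKM and 13.1 FPKM. Lyve1 lay within 2-fold at 526 FPKM and 552 FPKM, and which cells its transcripts came from was not tested. Blood endothelial markers, Apln and Aplnr included, had 10 of 14 lower (median -1.50). All 15 macrophage markers and all 10 mast cell markers were at least 2-fold higher, with medians of 6.18 and 5.79. Their summed levels were 64.3 FPKM and 4818 FPKM for macrophages and 111 FPKM and 13020 FPKM for mast cells, with C1qc and Fcer1a listed at 0 in control. The levels of fibroblast markers (10 of 11 lower, median -1.96), pericyte and smooth muscle markers (10 of 10, median -2.56) and adipocyte markers (8 of 9, median -2.49) were low alongside Apln and Aplnr. Summed levels in control were 4259 FPKM for fibroblast, 2055 FPKM for adipocyte and 1807 FPKM for lymphatic markers. In the library labelled knockout they were 993, 361 and 816 FPKM. The lists differ in their number of genes. Neither library thus held transcripts of LECs alone. Keratinocyte markers had 6 of 10 lower (median -1.16), skeletal muscle markers 4 of 7 (median -1.27), and melanocyte and Schwann cell markers 4 of 7 with 1 higher (median -1.20). Erythroid markers had 1 of 6 lower (median -0.0054). Apln is also made by adipocytes, and in control the fat cell hormone Adipoq was 30.2 FPKM, against 0.926 FPKM in the other library. The part of these cells in the values of Apln and Aplnr was not tested.

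**Figure D5:**
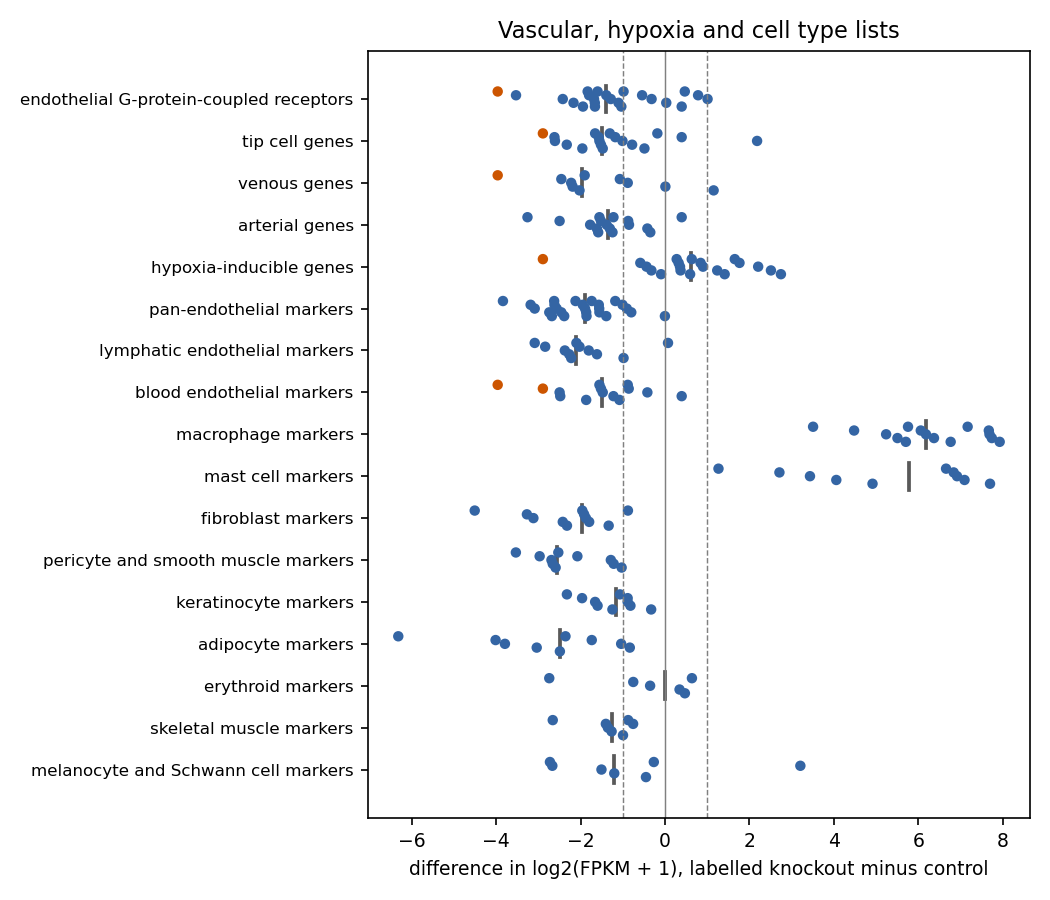
Difference in log2(FPKM + 1), labelled knockout minus control, for each measured gene of 17 lists; Apln and Aplnr are orange, grey bars are medians, and dashed lines mark 2-fold. Aplnr and Apln lie left of the medians of the endothelial lists, Apln lies apart from the hypoxia-inducible genes (median 0.61 with Apln counted), and the medians of the macrophage and mast cell markers lie at 6.18 and 5.79.

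The genes most like each member were found by distance over log2(FPKM + 1) in the 2 libraries, so likeness rests on 2 values per gene. Nearest to Aplnr among 12543 named genes were Tmem255a (46.6 and 2.88 FPKM, distance 0.25), Nnat (64.3 and 2.85 FPKM), Lpar4, Efemp1 (42.9 and 1.87 FPKM) and the pericyte gene Rgs5 (39.2 and 2.46 FPKM, distance 0.42). Among the nearest to Apln were Scara3 (19.8 and 2.02 FPKM, distance 0.083), Dok4 (19.0 and 2.02 FPKM), Abcc9, a channel subunit of pericytes (20.9 and 2.39 FPKM), and Fads2 (19.9 and 2.37 FPKM, distance 0.21). Both sets thus include genes of cells other than endothelium.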

How the data were processed

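The authors deposited 1 table per library, with a value for each gene symbol. The deposited values were read as FPKM: they are decimals of 0 or more, their sum is not 1000000, and Cufflinks 2.2.1 and Cuffnorm stand in the submitters' processing notes. Those notes also list STAR 2.5.2b, R 3.3.2 and build mm9. For the annotation and any scaling between libraries, nothing is given in the sources used here. The tables hold the same rows, 27 of them with dates in place of symbols, which were kept in totals only. The annotation used here is of another build, so the only coordinates given are those of the upstream sequences, on GRCm38.p6.

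Values were handled with Python 3.11.15, pandas 2.3.3 and numpy 2.4.6, with a pseudocount of 1 and a minimum of 1 FPKM in either library. All 244 list symbols were matched, 1 of them by a synonym. The summed FPKM were 415537 and 530294. Depth was estimated from the steps between low values of genes with 1 annotated transcript of at least 2500 nt in GENCODE M21, assuming fragments of 200 nt: 82.9% of 152 control values and 78.6% of 168 values lay within 0.1 of a whole fragment, which corresponds to about 10300000 fragments in control and 9160000 in the other library, provided that the values were not scaled further. The scan was tested on simulated data. Fragments for a gene use its longest transcript in that annotation and are rough. No count model was used, since whole reads could not be recovered throughout, and a value at 0 can be a failed estimate.

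The members and the lists (6 roles of the apelin pathway and 17 others) were chosen with earlier results of these data known. Named genes are the members, Pecam1, Cdh5, Dot1l, the pathway genes, examples from each list and the 5 nearest genes to each member, leaving out predicted genes, clone names and small RNAs; some genes that this rule names are not reported here. The examples were to be those with the extreme differences and the highest control level; some list genes named here (among them Ephb4, Esm1, Angpt2, S1pr1, Calcrl, Lyve1, Prox1, Cd34, Sox18 and Adipoq) were chosen for their role or after their values were seen. Xist, which is in none of the lists, was named after its value was seen. Alternatives were other pseudocounts, scalings, minimum levels, fold thresholds and references. The ratios without a pseudocount and the count without Apln, Aplnr and Apela were added after seeing the data.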

Additional observations from a re-analysis of the deposited data

How the results depend on the processing

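No paired analysis was possible because the labels give a single pool for either genotype; leaving out a replicate could not be done either. The Aplnr difference of -3.97 was -4.38 with a pseudocount of 0.1, -2.96 with 5 and -4.43 with none, and -4.51, -4.09 and -4.00 after rescaling to the same sum, upper quartile and median. In the same order the Apln difference of -2.90 was -3.36, -1.90 and -3.43, then -3.46, -3.01 and -2.92. Relative to Pecam1 and Cdh5, Aplnr (-1.56) was -1.95, -0.66 and -2.0 with those pseudocounts, -1.84 against Pecam1, -1.28 against Cdh5 and -2.07 against the pan-endothelial median. Apln (-0.49) was -0.93, 0.40 and -1.0 with those pseudocounts, then -0.77, -0.21 and -1.0; the value of 0.40 is reversed, and a pseudocount of 5 is larger than its 1.94 FPKM in the library labelled knockout. A pseudocount of 5 left 921 of all genes at least 2-fold lower and 1323 higher, against 2060 and 2231. The same sum gave 3330 lower, the same upper quartile 2365 and the same median 2115. A threshold of 1.5-fold gave 3450 lower and 3464 higher, and 3-fold gave 906 and 1298. The 14 lower pathway genes ranged from 10 to 19 and the 5 higher ones from 4 to 6 over all alternatives. Few fragments lie behind the Apela value in the library labelled knockout, about 5.80.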
